A study of Mus musculus with 7 samples.

Results

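Sine oculis homeobox genes and Eya genes encode developmental regulators that act together. Of these genes, *Six2*, *Six3*, *Six4*, *Six5*, *Eya1*, *Eya2*, *Eya3* and *Eya4* are described here in the posterior second heart field (pSHF) of *Shh* mutant mouse embryos. Their probes were those that the array files name for these 8 genes, 15 probes of 41174 in all. The array has named probes for 21475 genes. The genes were picked with the difference between mutant and wild type on these arrays already known, so their own values are given as a description. No p-value is printed for them. Where a call or a count at a p threshold is given for these genes, it is part of that description and no independent support. *Six2* was singled out for the same reason, and the values that contrast it with the other genes are a description too.

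RNA came from pools of pSHF tissue microdissected at E9.5 from *Shh* -/- embryos (4 pools) and *Shh* +/+ embryos (3 pools). Both genotypes came from crosses of *Shh* +/- parents, with superovulated mothers, on a mixed background that the labels write as C56B/6 and CD-1. The mutation was therefore in all cells of the mutant embryos, not in 1 tissue. Each pool joined the tissue of several embryos, so the spread between pools is not that between single embryos. Per the methods, the attached foregut was part of the dissected tissue, and the heart, dorsal lateral plate and neural tube were not.

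The proteins SIX2 to SIX5 are transcription factors that bind DNA through a homeodomain, with a second conserved domain beside it. Eya proteins do not bind DNA themselves. They attach to that second domain and act as coactivators, and their conserved C-terminal part is also a phosphatase. Pax factors often act upstream of the pair, and Dach proteins act as cofactors that can turn it towards repression. This network is known from the pharyngeal arches, the ear, the kidney, the eye and skeletal muscle.

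The probes that carry the largest differences are shown first, because each value below is the signal of one such sequence. Each is a 60-base oligonucleotide, of which the first 30 bases are written 5′ to 3′. Coordinates are those of the array's own annotation on mm9, and the strand is that of the gene. Which exon or untranslated part each probe lies in was not analysed here, as no mm9 gene models were used.
Six2, probe A_51_P354224, chr17:86083986-86084045, minus strand: ggtgtcatctatttgagttcctttctcaac
Eya1, probe A_52_P36315, chr1:14159153-14159212, minus strand: aaatggccagtgttgagacctcttcatttg
Eya1, probe A_51_P375378, chr1:14160732-14160791, minus strand: atccagtgaaagtaagccatgagaatgttc
Eya2, probe A_51_P334209, chr2:165594761-165594820, plus strand: ttggccgcaaagctgtctacattgtgatag
Of the *Eya1* probes, A_52_P36315 lies nearer the 3′ end of the gene and is called the 3′ probe below, and A_51_P375378 is called the 5′ probe. These names give only the order of the probes, which lie close together, and not the ends of the gene.

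The values below are log2 signals after background correction and variance-stabilizing normalization (VSN), so 1 unit is a doubling of normalized signal. They serve to compare pools for 1 probe and not to compare genes. A probe was tested when it was well above background, by the scanner software's own measure, on every array of at least 1 genotype. Of the 15 probes, 12 probes of 7 genes were tested, among 23129 tested probes on the array. A probe was called when its adjusted p was under 0.05 in limma, with Benjamini-Hochberg adjustment over all 23129. Pools with the same number, 1, 3 or 4, were hybridized on 1 slide. The first array position always held the mutant, so an effect of position cannot be told apart from one of genotype. Mutant pool 2 had no partner, and its label notes a possible leak during hybridization. The array medians after normalization were 6.16 to 6.34.

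The genotype showed in the Hedgehog genes. *Hhip*, a target that binds the ligand, fell by 2.83 (SE 0.18, adjusted p = 0.00128, limma). The *Shh* probe had 9.67, 9.39, 9.22 and 9.32 in the mutant pools and 10.72, 10.74 and 9.98 in the wild-type pools, and was well above background on all 7 arrays. Its difference was −1.08 (SE 0.20, adjusted p = 0.0657, limma), so signal remained in the mutants. Whether the probe lies in the deleted part of the gene is not given in the sources used here. *Gli1*, a transcription factor and target, was at −1.02 (SE 0.19, adjusted p = 0.0678, limma), and *Ptch1*, the receptor, at −1.17 (SE 0.28, adjusted p = 0.143, limma). For all 4 genes every mutant pool lay under every wild-type pool, where 3.55% of all tested probes did. Only *Hhip* of the 4 was called.

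*Six2*, the member known for keeping nephron progenitors undifferentiated, had normalized log2 signals of 5.95, 5.95, 6.15 and 6.28 in mutant pools 1, 2, 3 and 4. The wild-type pools 1, 3 and 4 had 7.55, 7.24 and 7.80. All mutant pools were low and all wild-type pools high, with a gap of 0.96 between the highest mutant and the lowest wild-type pool. The difference of the means was −1.45 (SE 0.16, 95% interval −1.80 to −1.09), which put the mutant signal at 36.7% of the wild-type signal. Such a fold of a weak signal depends on the processing. The *Six2* difference was −1.26 without background correction, −1.02 with quantile normalization and −1.55 with 75th percentile scaling. The *Six2* probe was well above background on all 7 arrays, and its difference ranked 37 from the lowest among all tested probes. It was the 1 probe of the 12 that was called, where 0.558% of all tested probes were called, and it was not called without mutant pool 3 or without wild-type pool 1 (−1.47 and −1.44). With slide as a block the difference was −1.40 (SE 0.15) and the probe was no longer called. Under that model 11 probes of all those tested were called (0.0476%).

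*Eya1*, whose loss of 1 copy causes branchio-oto-renal syndrome in people, had signals on its 3′ probe of 10.54, 10.47, 10.48 and 10.97 in the mutant pools. The wild-type pools had 12.06, 11.55 and 11.35. The genotypes did not overlap, and mutant pool 4 stood above the other mutant pools. The difference was −1.03 (SE 0.19, 95% interval −1.48 to −0.59), or 48.8% of the wild-type signal.

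The 5′ probe of *Eya1* had 5.19, 4.72, 4.90 and 5.27 in the mutant pools and 5.85, 5.84 and 5.79 in the wild-type pools. Again every mutant pool was lower, and the wild-type pools lay within a few hundredths of each other. The difference was −0.81 (SE 0.15, 95% interval −1.14 to −0.47). Its size depended on the processing, at −0.53 without background correction, −0.36 with quantile normalization and −0.94 with 75th percentile scaling. This probe was well above background on 3 of the 4 mutant arrays, so the lowest of its mutant values is close to the limit of measurement. Both *Eya1* probes therefore lay on the same side, with intervals that overlap for the VSN values.

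*Eya2*, a paralogue with the same coactivator role, had 5.20, 6.47, 6.12 and 6.64 in the mutant pools and 6.66, 7.05 and 7.40 in the wild-type pools. The mutant pools spread over more than 1 unit, and the highest of them lay just 0.02 under the lowest wild-type pool. The difference was −0.93 (SE 0.33, 95% interval −1.68 to −0.18). Mutant pool 1 was the lowest of all arrays for this probe, and without it the difference was −0.63.

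**Figure D1:**
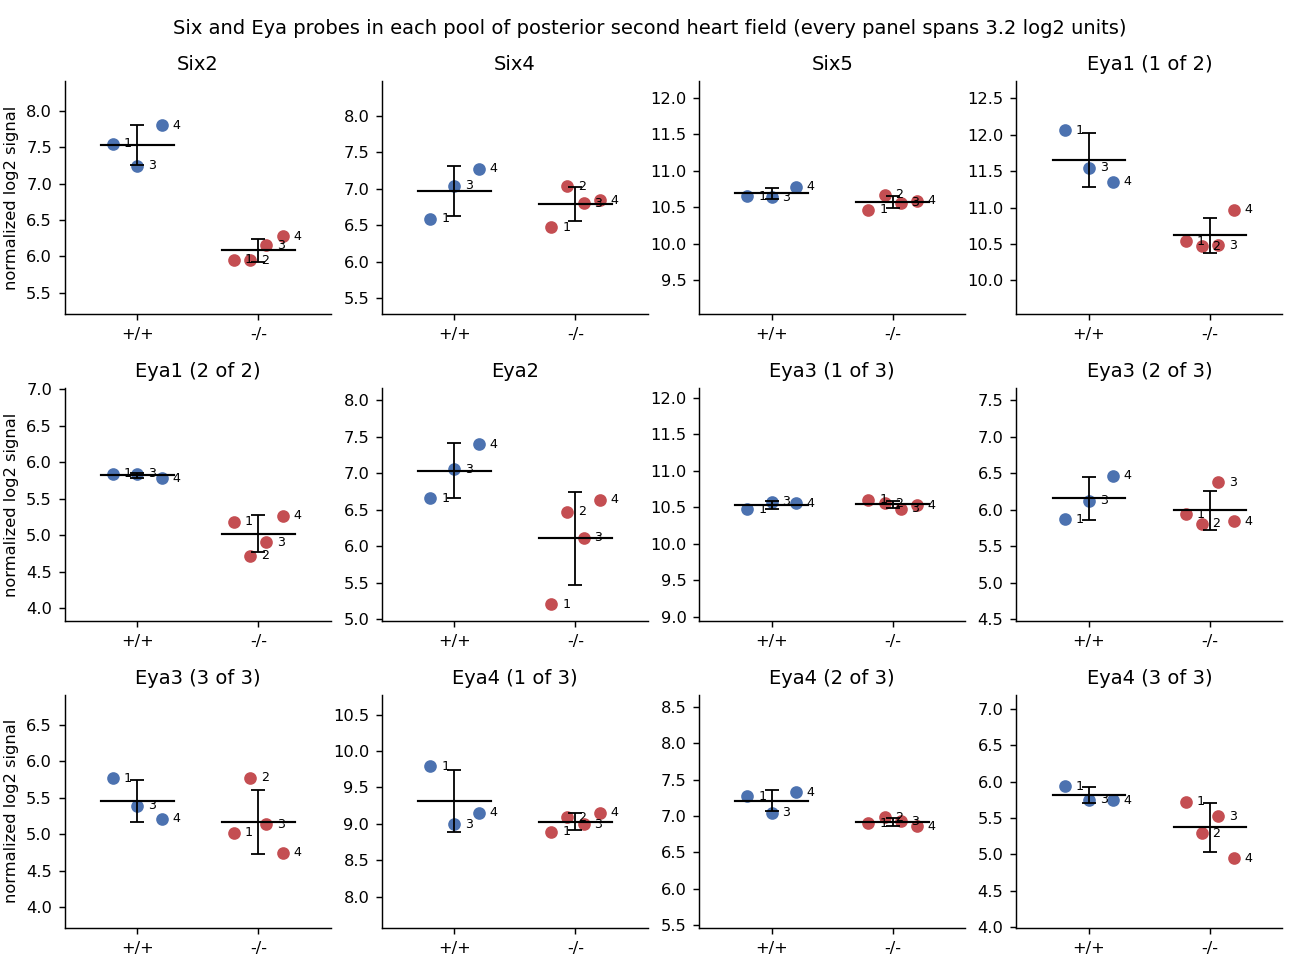
Normalized log2 signal (y axis) of the 12 tested probes of these genes in each wild-type (+/+, blue) and mutant (-/-, red) pool, with the pool number beside each point, the mean as a line and the SD as a bar. Every panel spans the same number of log2 units, and the genotypes are widest apart for *Six2* (−1.45); *Eya1* 1 of 2 is the 3′ probe, and the *Eya3* and *Eya4* probes are numbered in the order the text gives them.

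The other sine oculis genes differed little. *Six4*, a factor with a role in muscle precursors, had 6.47, 7.03, 6.81 and 6.84 in the mutant pools and 6.59, 7.04 and 7.27 in the wild-type pools. The genotypes overlapped, and the difference was −0.18 (SE 0.19, 95% interval −0.61 to 0.25). *Six5*, whose gene lies beside the repeat expanded in myotonic dystrophy, had 10.47, 10.67, 10.56 and 10.59 against 10.65, 10.64 and 10.78. These ranges overlapped as well, and the difference was −0.12 (SE 0.11, 95% interval −0.36 to 0.12). The interval of *Six5* leaves out a change as large as that of *Six2*, and so does that of *Six4*.

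*Six3*, a factor of the forebrain and eye, gave no usable signal. Its probe A_52_P675229 was not well above background on any array, with 3.46 to 3.66 in the mutant pools and 3.25 to 3.40 in the wild-type pools. Its probe A_51_P187561 was well above background on 1 mutant array alone. On mutant pool 3 its spot was flagged as an outlier and left out, and the remaining pools had 3.31 to 3.38 (mutant, n = 3) and 3.41 to 3.61 (wild type). *Six3* was therefore not tested.

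*Eya3*, the member that is transcribed widely in embryos, had 4 probes, of which 3 were tested. The first, A_52_P427332, had 10.60, 10.55, 10.48 and 10.53 in the mutant pools and 10.48, 10.58 and 10.55 in the wild-type pools. These 7 values lay close together, and the difference was 0.01 (SE 0.10, 95% interval −0.22 to 0.23). The second, A_52_P1116481, was at −0.16 (SE 0.19) and the third, A_52_P331237, at −0.29 (SE 0.24), both with overlap. The bases of the third probe are spread over 2700 bases of the genome. The probe not tested, A_51_P459650, was well above background on 1 mutant array and 2 wild-type arrays.

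*Eya4*, a gene of inherited deafness and heart muscle disease in people, had 3 tested probes, all lower in the mutants by small amounts. The first, A_52_P295933, had 8.89, 9.09, 8.99 and 9.15 in the mutant pools and 9.79, 8.9996 and 9.15 in the wild-type pools. Here wild-type pool 1 stood above all other arrays, the rest overlapped, and the difference was −0.28 (SE 0.19). The second, A_52_P86424, had 6.90, 6.98, 6.92 and 6.86 against 7.27, 7.04 and 7.32, without overlap but with a gap of 0.06. Its difference was −0.29 (SE 0.11, 95% interval −0.54 to −0.04). The third, A_52_P608186, whose bases are spread over 2288 bases of the genome, differed by −0.44 (SE 0.18), with a gap of 0.02.

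Across the 12 tested probes, 11 were lower in the mutants and 1 was higher, where 44.2% of all tested probes were lower. The median difference was −0.29, against 0.02 over all tested probes. In 6 of the 12 every mutant pool lay under every wild-type pool, where 3.55% of all tested probes did. A difference under −0.5 was found for 4 of the 12, those of *Six2*, *Eya1* and *Eya2*, and for 2.65% of all tested probes. Probes of 1 gene share their transcript, and the genes were picked on this contrast, so these counts describe the genes and support nothing further.

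**Figure D2:**
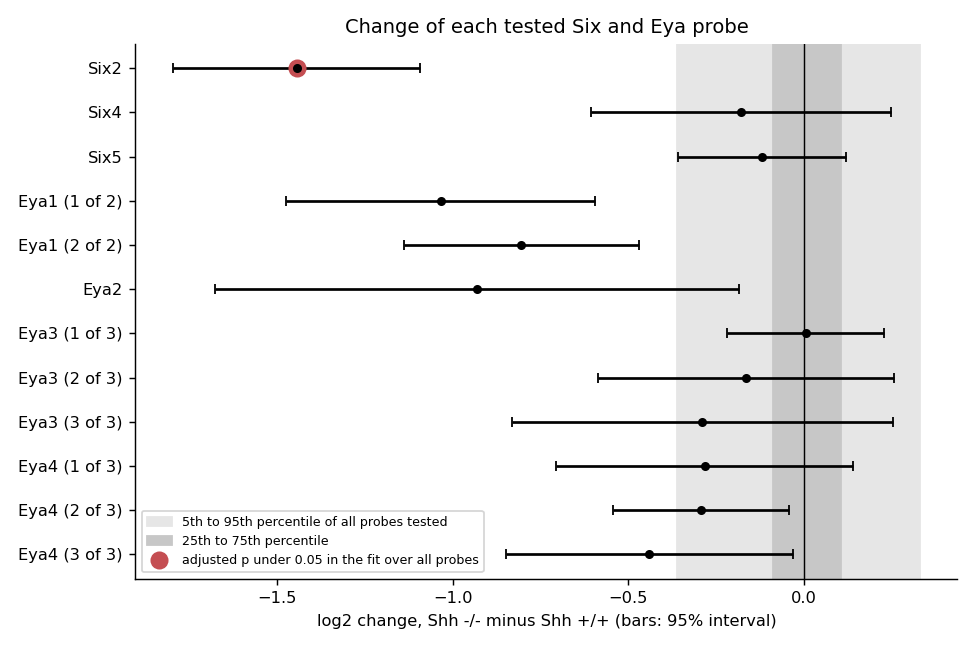
Log2 difference of mutant minus wild type (x axis) for each tested member probe, with 95% intervals, over grey bands that hold the central part of all 23129 tested probes (−0.09 to 0.11 for the dark band, −0.36 to 0.33 for the light one). *Six2*, both *Eya1* probes and *Eya2* lie to the left of the light band, the third *Eya4* probe lies just left of it, and the other probes lie within it.

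The slides that held both genotypes gave the same comparison 3 times. *Six2* differed by −1.59 on slide 1, −1.09 on slide 3 and −1.52 on slide 4. The 3′ probe of *Eya1* differed by −1.52, −1.06 and −0.38 on these slides, and the 5′ probe by −0.66, −0.94 and −0.52. For *Eya2* the differences were −1.45, −0.94 and −0.77. The order of the slides was thus not the same from gene to gene, and the *Eya1* 3′ probe varied most. *Six4* was at −0.11, −0.23 and −0.43, and *Six5* at −0.18, −0.08 and −0.19. The first *Eya4* probe was clearly lower on slide 1 alone, at −0.90, with −0.01 and 0.00 on the others. In all, 9 of the 12 probes were lower in the mutant pool on all 3 slides, where 11.4% of tested probes were.

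**Figure D3:**
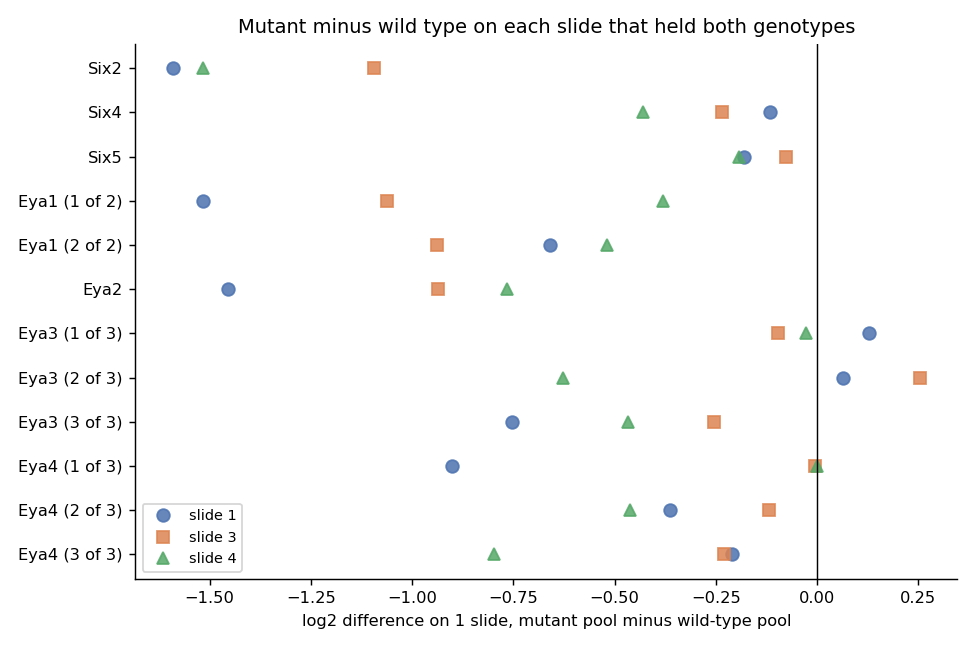
Log2 difference between the mutant and the wild-type pool on each of the 3 slides that held both (x axis), for each tested member probe, with 1 symbol per slide and no error since each is a single pair. All 3 symbols of *Six2* lie at or left of −1.09, and those of *Six4*, *Six5* and the first *Eya3* probe lie between −0.43 and 0.13.

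To set *Six2* against the other genes, the signal of another gene's probe was taken away from that of *Six2* on the same array, and the genotypes were then compared. This asks only if 2 probes differed by unequal amounts. For each other gene the tested probe with the highest signal was used, which for *Eya1* is the 3′ probe. Against *Six4* the *Six2* signal was lower by −1.27 (SE 0.24, 95% interval −1.88 to −0.65) in the mutants, and against *Six5* by −1.33 (SE 0.15, 95% interval −1.70 to −0.95). Against *Eya3* the value was −1.45 (SE 0.19) and against *Eya4* −1.16 (SE 0.23). In these 4 ratios every mutant pool lay under every wild-type pool.

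The ratios of *Six2* to *Eya1* and *Eya2* were different. Against the 3′ probe of *Eya1* the value was −0.41 (SE 0.26, 95% interval −1.08 to 0.25), and the genotypes overlapped. Against *Eya2* it was −0.51 (SE 0.38, 95% interval −1.49 to 0.46), also with overlap, and mutant pool 1 was at 0.26, among the wild-type pools. Against the 5′ probe of *Eya1* it was −0.64 (SE 0.20, 95% interval −1.15 to −0.13). These intervals do not show that *Six2* and its *Eya* partners differed by the same amount, since they still allow a gap of 1 unit. Against the mean of the 6 other genes *Six2* was at −1.02 (SE 0.15, 95% interval −1.40 to −0.65), with the mutant pools at −0.90, −1.26, −0.92 and −1.001 and the wild-type pools at 0.01, −0.23 and 0.21. Under quantile normalization this value was −0.64.

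**Figure D4:**
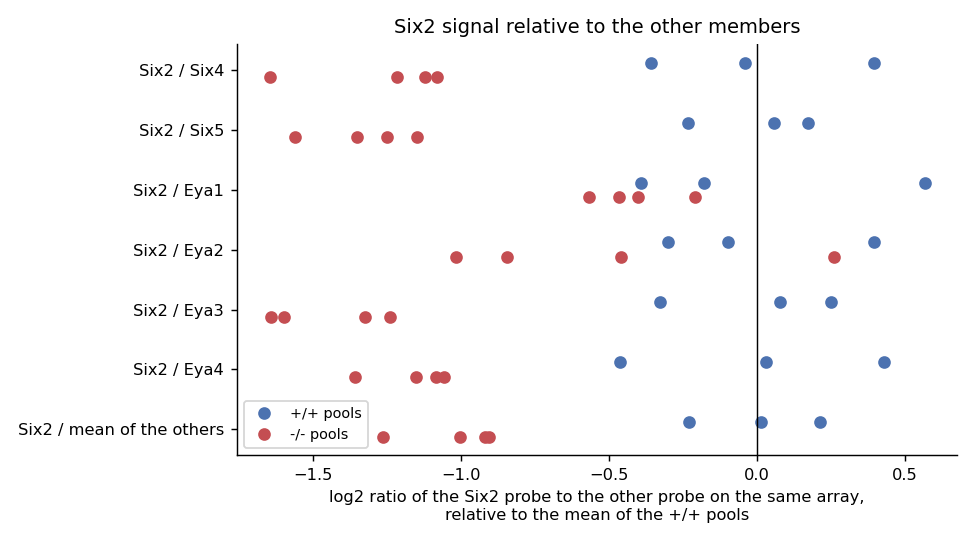
Log2 ratio of the *Six2* probe to another member's probe on the same array (x axis, relative to the mean of the wild-type pools), for each mutant (red) and wild-type (blue) pool. The genotypes separate against *Six4*, *Six5*, *Eya3*, *Eya4* and the mean of the others (−1.02), and overlap against *Eya1* (−0.41) and *Eya2* (−0.51).

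Known partners and targets of these factors were read from a list of 33 genes, of which 28 were tested on 1 probe each. The list was chosen with earlier results of these data known. Its counts and p-values, here and below, are therefore a description and no independent support. Of these, 3 were called lower and 0 higher, with 19 lower and 9 higher by sign, and 16 had an unadjusted p under 0.05, where 7.96% of all tested probes had one. Calls lower in the mutants made up 0.294% of all tested probes. The list's median was −0.21, against 0.02 over all tested probes. The 3 genes called were *Pax1*, *Pax9* and *Gdnf*.

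*Pax1*, a factor of the pharyngeal pouches and sclerotome, had 5.30, 6.33, 6.84 and 7.17 in the mutant pools and 10.36, 8.75 and 9.15 in the wild-type pools. It fell by 3.01 (SE 0.48, adjusted p = 0.0429, limma). *Pax9*, its close relative in the same tissues, was well above background on 1 of the 4 mutant arrays. Its mutant signal was lower by at least 4.06-fold (adjusted p = 0.0356, limma), a bound for which mutant values under the lowest well-above-background signal of their array were raised to it. *Gdnf*, a secreted factor that acts through *Ret* in the kidney, fell by 0.97 (SE 0.16, adjusted p = 0.0440, limma), from 6.00, 6.56 and 6.55 to 5.51, 5.25, 5.50 and 5.34. For all 3 genes every mutant pool lay under every wild-type pool, where 3.55% of all tested probes did. With slide as a block the adjusted p (limma) was 0.124 for *Pax1*, 0.0545 for *Pax9* and 0.109 for *Gdnf*, so 0 of the 28 genes were called, and 15 had an unadjusted p under 0.05, where 9.06% of all tested probes had one. Leaving out any 1 pool left at most 1 of the 28 called.

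The Dach cofactors did not pass the test. *Dach1* was at 0.02 (SE 0.20), and *Dach2* at 0.38 (SE 0.11, adjusted p = 0.238, limma), with every mutant pool above every wild-type pool. *Sall1*, a zinc finger gene of the kidney and ear, was well above background on 2 of the 4 mutant arrays and at −0.50 (SE 0.16, adjusted p = 0.348, limma). *Tbx1*, a factor of the pharyngeal arches and second heart field, was at −0.78 (SE 0.24, adjusted p = 0.311, limma), with overlap. The muscle factors *Myod1* and *Myf5*, the Pax genes *Pax7* and *Pax8*, and *Ret* were too dim to be tested.

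**Figure D5:**
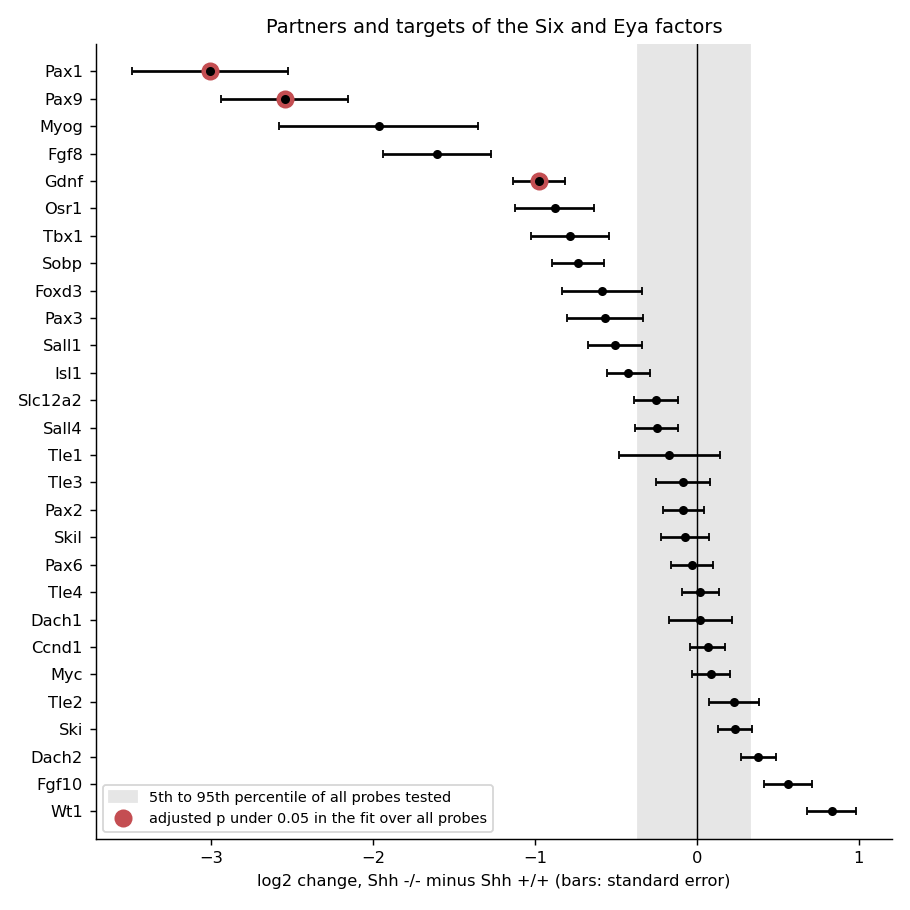
Log2 difference of mutant minus wild type (x axis) with its SE for the 28 tested partners and targets of these factors, over a grey band that holds the 5th to 95th percentile of all tested probes. *Pax1* (−3.01), *Pax9* (plotted at its fitted −2.55, with 3 mutant arrays not well above background) and *Gdnf* (−0.97) are the called genes, circled in red, and *Wt1* (0.83) has the highest value.

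The genes near *Six2*, *Eya1* and *Eya2* on the chromosome that could be tested had smaller differences. By gene order in RefSeq (GRCm38.p6), *Six3* lies next to *Six2* and was not tested, and *Camkmt* beyond it was at 0.24 (SE 0.29). On the other side of *Six2*, *Srbd1* was at 0.01 (SE 0.16) and *Prkce* at 0.02 (SE 0.16). Beside *Eya1*, *Xkr9* had no probe on the array, and *Trpa1* was not tested. Near *Eya1*, *Lactb2* was at 0.19 (SE 0.10) and *Msc*, a factor of arch muscle, at −0.40 (SE 0.27). Near *Eya2*, *Slc2a10* was at −0.12 (SE 0.12), *Zmynd8* at 0.05 (SE 0.13) and *Trp53rka* at −0.02 (SE 0.16). The lowest adjusted p of these tested genes was 0.799 (limma).

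The sequence before the *Six2* start site was searched for the motif of the Hedgehog effectors, since *Six2* had the largest difference among its family. The 250 bases upstream of the start, from RefSeq (GRCm38.p6), lie at chr17:85688255-85688504 on the minus strand and are 64.8% G or C, against a median of 52.4% over 32851 promoters.
Six2 upstream: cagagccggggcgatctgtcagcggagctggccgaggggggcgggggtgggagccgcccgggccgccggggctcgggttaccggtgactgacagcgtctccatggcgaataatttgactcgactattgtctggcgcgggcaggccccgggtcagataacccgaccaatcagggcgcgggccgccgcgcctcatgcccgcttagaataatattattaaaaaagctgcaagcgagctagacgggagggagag
The Gli motif GACCACCCA was sought on both strands of this window and of the first 50 bases after the start. It was found in 0 of the 8 promoter windows listed for 6 of the members, *Six2* among them, and in 0.253% of all promoters. *Eya1* and *Eya2* have no window in the table. The MEF3 motif TCAGGTTTC, a known binding sequence of the sine oculis factors, was in 1 of the 8 windows and in 0.429% of all promoters. That window is of *Six4*, with the motif in capitals in its reverse complement, at chr12:73113326-73113354 on the minus strand.
Six4 upstream: tggcctggggGAAACCTGAtcggccagat
A match is a run of letters and not a measured site, and a window of this size leaves out distant elements.

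The probes most like *Six2* in pattern were found by the Pearson correlation of their log2 signals with those of *Six2* over the 7 arrays, among 23026 probes with a value on every array. These arrays share the difference between genotypes, which by itself makes such correlations high. The 6 genes with the highest r were *Crhbp* (0.991), *LOC100049166* (0.991), *Pltp* (0.989), *Neto1* (0.986), *Plaur* (0.986) and *Col9a1* (0.985). *Crhbp*, which encodes the binding protein of corticotropin-releasing hormone, fell by 2.00 (SE 0.16). *Pltp*, a phospholipid transfer protein, fell by 1.31 (SE 0.14). Genes picked for a pattern like that of *Six2* differ between the genotypes by that choice, so no p-value is printed for them. Once the mean of each genotype was taken away, r with *Six2* was 0.85 for *Crhbp* and 0.82 for *Pltp*. These values are a description too, since the genes were picked on the same arrays. The 3 genes with the lowest r were *Gstt1* (−0.994), *Cobll1* (−0.991) and *Gria1* (−0.988).

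The other members had lower r with *Six2*. The 5′ and 3′ probes of *Eya1* had 0.914 and 0.887, and *Eya2* 0.759. The 3 tested *Eya4* probes had 0.553, 0.905 and 0.608, in the order given above. Once the mean of each genotype was taken away, r with *Six2* was 0.22 and 0.15 for *Eya1* and 0.44 for *Eya2*. For the *Eya4* probes it was 0.28, 0.56 and −0.37, and 0.56 was the highest of any member probe. *Six5* had r of 0.712 with *Six2*, *Six4* 0.392, and the 3 *Eya3* probes −0.170, 0.406 and 0.287.

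In pooled tissue, fewer cells that express a gene and less RNA per cell cannot be told apart. All 14 markers of the pSHF were tested, which says that they had signal and not which cells gave it. *Isl1*, which marks second heart field progenitors, was at −0.42 (SE 0.13, adjusted p = 0.321, limma). The 1 marker called, where 0.558% of all tested probes were, was *Foxf2*, a forkhead factor of the gut mesenchyme, which fell by 2.43. The summed signal of this list was 77829 to 95643 in the mutant pools and 87780 to 101195 in the wild-type pools. Without *Wnt2*, which made up 33.3% of it on average, it was 50403 to 61435 and 62124 to 69523, with no overlap.

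Some markers of other tissues where these genes are known to be expressed had signal too, which does not say which cells gave it. These lists were also chosen with earlier results of these data known. Of all tested probes 0.558% were called in either direction, and 0.294% were called lower. *Pax1*, *Pax9* and *Gdnf* are on the partner list as well, so their calls here are those given above. The sclerotome list (8 of 10 genes tested) had 2 genes called lower, *Pax1* and *Pax9*. It summed to 6362 to 8552 in the mutant and 7987 to 11954 in the wild-type pools, of which *Foxc2* made up 43.0%. The list of neural crest and arch mesenchyme (13 of 14 tested) had 2 genes called lower, *Dlx1* and *Dlx2*. Its sums were 37069 to 52693 and 40740 to 50187, of which *Prrx2* (−0.04, SE 0.15) made up 70.9%. Without *Prrx2* they were 10787 to 15217 and 12623 to 13852, also with overlap. The otic and placode list (8 of 12 tested) had *Foxi2* and *Gbx2* called lower, with sums of 3586 to 4614 and 3856 to 4946, of which *Tbx2* made up 91.5%. Its genes *Pax8*, *Fgf3* and *Dlx3* were too dim to be tested, and *Foxi3* had no probe on the array. The nephrogenic list (9 of 13 tested) had *Gdnf* called lower and *Cited1*, a nephron progenitor gene, called higher by 0.69. Its sums were 13763 to 14716 in the mutant pools and 10871 to 12873 in the wild-type pools, and *Cited1* alone made up 49.5% of them on average. Of the 9 tested genes 5 were lower, with a median of −0.08. Without *Cited1* the sums overlapped, at 6012 to 6661 and 5972 to 7934. Of this list, *Pax8*, *Ret* and *Hoxd11* were too dim to be tested. *Hoxa11* was well above background on 3 mutant and 2 wild-type arrays, so it was not tested either. *Osr1*, *Wt1*, *Lhx1* and *Gata3* were among those tested and were well above background on every array.

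The neural tube list (6 of 11 tested) summed to 2953 to 4619 in the mutant and 5607 to 6205 in the wild-type pools, with *Sox1*, *Nkx2-2*, *Irx3* and *Dbx2* too dim to be tested. *Nkx6-1* (−0.85, SE 0.16, adjusted p = 0.0678, limma) made up 72.4% of these sums on average. Without it they overlapped, at 968 to 1504 and 1296 to 1466. Of the forebrain and eye markers, where *Six3* is known to act, *Otx2*, *Rax*, *Hesx1*, *Vax1*, *Vax2* and *Otx1* were too dim to be tested. The myotome list (5 of 8 tested) summed to 1337 to 1642 and 1299 to 1642, of which *Met* made up 84.8%, with a lowest adjusted p of 0.204 for *Myf6* (limma), and *Myod1*, *Myf5* and *Pax7* too dim. Foregut markers (10 of 12 tested) summed to 123935 to 147176 and 113878 to 132795, of which *Krt18* made up 54.1%. Heart muscle markers (10 of 10) summed to 277634 to 419145 and 227041 to 340056, of which *Myl7* made up 44.9%. Liver bud markers (9 of 10) summed to 147937 to 200808 and 135101 to 147547, of which *Afp* made up 80.1%. The liver genes *Alb*, *Fga*, *Fgb* and *Ttr* were called higher, where 0.558% of all tested probes were called in either direction. Heart muscle markers were thus present, although the methods leave the heart out of the dissected tissue, and their source was not tested. With slide as a block, *Foxf2* and *Dlx1* of all the marker genes named as called were still called. The part of any such tissue in the differences of *Six2*, *Eya1* and *Eya2* was not tested.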

How the data were processed

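RNA of 7 pSHF pools was labelled with Cy3 and hybridized to 7 single-colour Agilent arrays with 60-base probes. The authors deposited scanner tables with intensity per spot, read by Agilent Feature Extraction 10.5.1.1 per the submitters' processing notes, and a table of normalized log2 values. Each array holds 43379 non-control spots for 41174 probes.

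Groups came from the sample titles. In the labels the entries for strain and for genotype have changed places. The design text calls the pools independent.

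Mean intensity was corrected by normexp, with background from 153 negative control spots (offset 50), and then normalized with a VSN written for this work, with 7 iterations, 5 strata and a trimming share of 0.9, on the log2 scale. Outlier spots (155 to 206 per array) were left out. No spot was saturated. Limma 3.58.1 in R 4.3.3 compared the genotypes over 23129 probes of 14896 genes, with limma in place of the methods' SAM. Within a genotype the SD had a median of 0.19, and precision is limited by the number of arrays. Where a gene of a list had several probes, the brightest tested probe stood for it. List sums add normalized signals on the linear scale. Scripts were tested on simulated data. Figures used matplotlib 3.10.9 in Python 3.11.15.

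Pools with 1 number shared a slide, per the labels. Deviations from the genotype means correlated at 0.192, 0.239 and 0.033 within slides, and at −0.22 to 0.187 over 9 pairs from different slides. The slide was tried as a fixed and as a random block (consensus correlation 0.100).

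Members and lists were chosen with earlier results of these data known. Named were all member probes, 4 Hedgehog genes, the called partners with *Dach1*, *Dach2*, *Sall1* and *Tbx1*, the 6 highest and 3 lowest correlations with *Six2*, and defining markers. Neighbours of the members, *Wt1* and the motifs were added after values were seen. Alternatives changed the scaling (75th percentile of the processed signal, quantile), left out background correction, kept dim probes or outlier spots, filtered by interquartile range, let the variance follow the signal, used the authors' log2 values, or left out each pool. After the data were seen, the authors' values were also brought to a common array median. Promoters are RefSeq sequences. Some results of the marker lists are not reported here.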

Additional observations from a re-analysis of the deposited data

Results flagged for a closer look

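In *Eya1*, the value of the 3′ probe in mutant pool 4 (10.97) stood apart from the other mutant pools (10.47 to 10.54). Its gap to the nearest of them was 0.862 of the group's whole range. Among 12 probes looked at in this way, 1 had such a pool, and about 5% of such groups would by chance. The 5′ probe of *Eya1* had 5.27 in the same pool, with 4.72 to 5.19 in the other mutant pools. Without this pool the 3′ probe differed by −1.15 in place of −1.03. The wild-type groups, with 3 pools each, were not looked at in this way.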

How the results depend on the processing

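*Six2* was lower in the mutants under all 18 alternatives and was called in 13. Its difference was −1.59 to −1.31 when 1 pool was left out, and −2.02 to −1.02 otherwise. It was not called with the replicate block, with the authors' values as deposited or set to 1 median, and without wild-type pool 1 or mutant pool 3. Of the 12 member probes, 2 were called with quantile normalization, no background correction, slide as a random block and the variance trend, and 2 with the interquartile range filter, which left 9 of them tested. The second was the 3′ probe of *Eya1*, or the 5′ probe with the random block. With the authors' values, the same set to 1 median, and the replicate block, limma called 0 member probes (0, 2 and 6 at an unadjusted p under 0.05, beside 0.121%, 4.49% and 9.06% of all probes), and 0 to 1 when 1 pool was left out. The cause was not tested.

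Of all probes, 129 were called. The number was 56 with 75th percentile scaling (66.1% of them lower, against 52.7%), 33 with no filter on dim probes (69.7% lower), 11 with the replicate block (90.9% lower), 0 with the authors' values (28 at an unadjusted p under 0.05), 0 with these set to 1 median (1038), and 12 to 134 when 1 pool was left out (42.5% to 100% lower). The 12 were without mutant pool 3, the 134 without mutant pool 1, and 14 (92.9% lower) were called without wild-type pool 1. Of the partner genes, limma called 3, but 0 with 75th percentile scaling, the authors' values, these set to 1 median, no filter on dim probes and the replicate block (13, 2, 10, 15 and 15 at an unadjusted p under 0.05), and 0 to 1 when 1 pool was left out. The list's median of −0.21 became −0.75 with the authors' values, under which the median of all probes was −0.54, and −0.46 with the interquartile range filter, which tests fewer genes. *Six2* against the other members moved from −1.02 to −0.64 with quantile normalization. The replicate block changed no call of *Hhip*, *Foxf2* or *Dlx1*. The authors' arrays have medians of 5.50 to 9.93, and how they were centred is not stated.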

Other observations

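Some members followed each other from pool to pool within a genotype. Once the genotype means were taken away, the Pearson correlation over the 7 arrays was 0.84 between *Six4* and *Six5*, 0.84 between *Six4* and *Eya2*, and 0.83 between *Six5* and *Eya2*. The pair of *Eya1* probes, which read the same gene, had 0.52. The lowest values were −0.88 between *Eya2* and the third *Eya4* probe, and −0.78 between the 5′ probe of *Eya1* and the third *Eya3* probe. These values rest on 7 arrays that share slides, and the pairs were chosen after their values were seen.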
